A study of Caenorhabditis elegans with 6 samples.

Results

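The genes described here are 10 cuticle collagen genes of Caenorhabditis elegans that were named for the body shape of their mutants and that do not build the furrows of the cuticle. They are dpy-5, dpy-13, dpy-14 and dpy-17, whose mutants are short and stout (dumpy), rol-6 and sqt-1, whose mutants roll about their long axis, sqt-3 (squat), lon-3 (long), and bli-1 and bli-2 (blistered). They were chosen by symbol, with earlier results of these data known. All were found among the 46911 gene identifiers counted, and all 10 passed the filter on low counts that left 13138 genes to be tested. dpy-14 passed it only through the wild-type libraries.

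The cuticle is the collagen-rich exoskeleton of the worm. The epidermis secretes it anew at each larval stage, and the old one is shed at the molt. Each cuticle collagen is made as a procollagen, with a Gly-X-Y repeat region that forms a triple helix, and is hydroxylated, folded, cut by proteases and cross-linked before it becomes insoluble matrix. Loss or alteration of single collagens changes the length, girth or twist of the animal, which gave these genes their names.

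RNA was sequenced from whole animals of 2 strains, each with 3 libraries. One was nmr-2(ok3324), which carries an allele of nmr-2, the gene for a subunit of an NMDA-type glutamate receptor, and the other was the wild-type N2 strain (WT). Animals of both strains hatched from eggs that about 40 gravid adults laid during 3 h on 10 cm plates with Escherichia coli OP50, grew at 20 °C, and were labelled as L4, the last larval stage. No driver, transgene or drug is named for either strain, and the labels do not state whether the 3 libraries of a strain were separate cultures, so the spread behind each p-value may be partly technical. The comparison asks how transcript levels differ in nmr-2(ok3324) animals, here for the shape collagens.

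The libraries held 21234748 to 27893186 counts, and 3 counts lay between 0.106 and 0.145 CPM, a unit that scales counts to 1e+06 per library, here with TMM scaling factors. The scaling factors stood apart in both libraries numbered 2, at 1.20 in nmr-2(ok3324) and 0.838 in WT. For nmr-2 itself the counts summed to 13 in the mutant and 19 in WT (ratio 0.618, 95% exact interval 0.281 to 1.32), too few to check the genotype labels. Markers of epidermis, muscle, intestine, neurons and germ line were present in all 6 libraries, apart from the epidermal nhr-73, which was at 0 in all WT libraries and in 1 mutant library. Of the 33 marker genes that were tested, edgeR and limma-voom called 0 and DESeq2 called 1. Before adjustment, 9 of the 33 had an edgeR p under 0.05, beside 2257 of all 13138 genes tested. The 12 epidermal markers, the lineage that makes cuticle, summed to 666 to 834 CPM in the mutant and 661 to 696 CPM in WT. The muscle sums (4481 to 5323 CPM in the mutant, 4261 to 4590 in WT) and the intestinal sums (1085 to 1368 and 1233 to 1562) overlapped as well. The neuronal markers summed to 142 to 153 CPM in the mutant and 161 to 170 in WT. The germ line markers summed to 2465 to 3100 and 3155 to 3600, so both sums were lower in all mutant libraries. The median log2 fold change was 0.285 for the neuronal markers, the other direction from their sum, and -0.234 for the germ line markers. The neuronal sum thus does not show that these markers were lower as a group. The yolk protein genes vit-1 to vit-6, known for their expression in adult hermaphrodites, summed to 49934 to 61806 CPM in the mutant and to 63147 to 65522 CPM in WT. These sums were lower in all mutant libraries. At such levels both strains, though labelled L4, held abundant RNA of genes known from adults. The part of these levels in the collagen results was not tested. In whole animals, fewer cells of a type and less RNA per cell cannot be told apart.

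In nmr-2(ok3324), 5 of the 10 shape collagens rose, 1 fell and 4 did not pass (edgeR quasi-likelihood test, Benjamini-Hochberg adjusted p under 0.05 over all 13138 genes). Among all tested genes 2.16% were called, 1.79% as risen and 0.373% as fallen. dpy-5 and dpy-13 rose nearly 4-fold, sqt-1, lon-3 and sqt-3 rose about 2-fold, and dpy-14 all but disappeared from the counts. The levels of rol-6, bli-1 and bli-2 were higher and that of dpy-17 was lower in the mutant without passing the test. The median log2 fold change of the 10 genes was 1.06, beside 0.03 over all tested genes. The groups of libraries did not overlap for 8 of the 10, with the mutant higher in 6 and lower in 2, where 13.4% and 11% of all tested genes were separated in these directions.

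**Figure D1:**
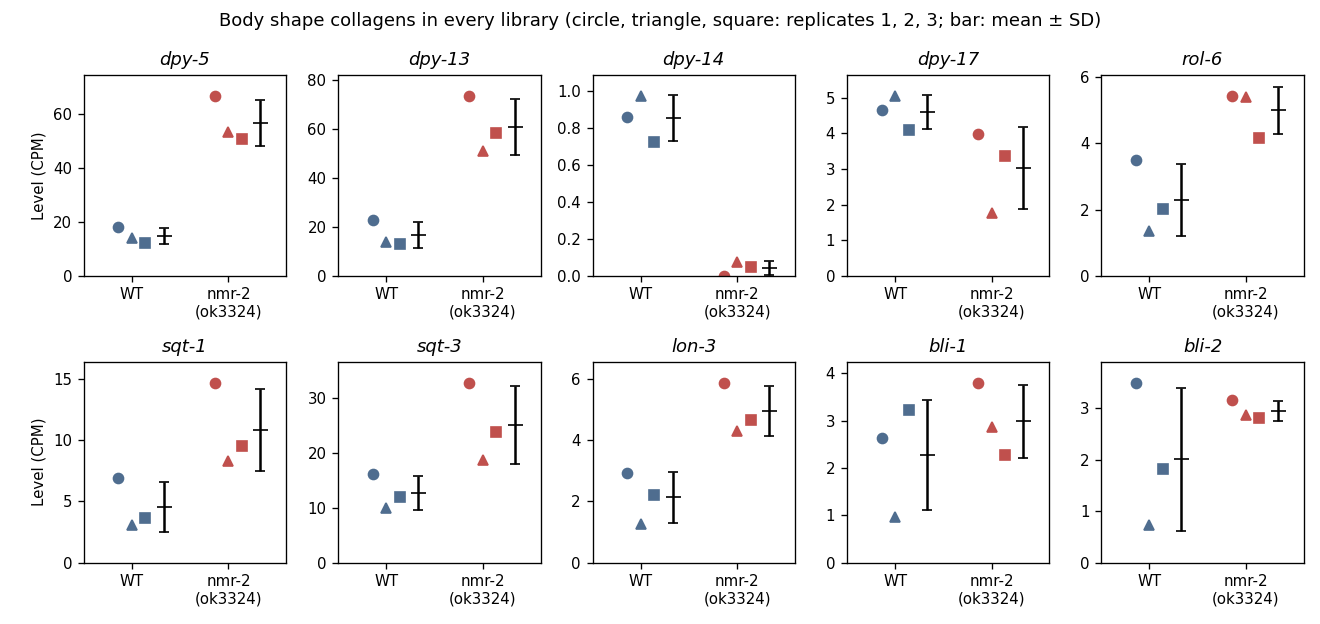
Levels of the 10 collagens in CPM (vertical axes, each from 0) in the 3 WT and 3 nmr-2(ok3324) libraries, with the mean and SD beside them. All mutant libraries lay above all WT libraries for dpy-5, dpy-13, rol-6, sqt-1, sqt-3 and lon-3, all lay below for dpy-14 and dpy-17, and the groups overlapped for bli-1 and bli-2.

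dpy-5 (WBGene00001067, chromosome I, 5432197 to 5433051 in WBcel235, minus strand, a gene annotated with 1 exon) encodes a cuticle procollagen whose loss makes animals dumpy. It was measured at 66.6, 53.2 and 50.6 CPM in mutant replicates 1, 2 and 3, and at 17.99, 14.1 and 12.2 CPM in WT replicates 1, 2 and 3. The lowest mutant library thus stood far above the highest WT library. The means were 56.8 ± 8.57 and 14.7 ± 2.96 CPM (SD, n = 3), or 3.85-fold, with a log2 fold change of 1.95 and an SE of 0.15 (edgeR adjusted p = 1.5e-06). dpy-5 ranked 114 of 13138 genes by fold change.

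dpy-13 (WBGene00001074, chromosome IV, 4235614 to 4236710, plus strand, 3 exons) encodes another collagen with dumpy mutants. Its levels were 73.4, 51.0 and 58.2 CPM in the mutant libraries and 22.7, 13.8 and 13.04 CPM in the WT libraries, again without overlap. From 16.5 ± 5.35 CPM in WT it rose to 60.9 ± 11.4 CPM in the mutant (SD, n = 3), which is 3.69-fold. The log2 fold change was 1.88 with an SE of 0.19 (edgeR adjusted p = 1.7e-05). Without both libraries numbered 2 the log2 fold change was 1.89, but the call was lost (edgeR adjusted p = 0.099), whereas that of dpy-5 was kept. The ratio of the 2 genes showed no separation of the strains: within single libraries there were 0.908, 1.04 and 0.870 dpy-5 counts per dpy-13 count in the mutant and 0.793, 1.02 and 0.935 in WT, ranges that overlapped.

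sqt-3 (WBGene00005018, chromosome V, 12352745 to 12354320, plus strand) encodes a collagen that the worm needs to survive. Its levels were 32.8, 18.8 and 23.9 CPM in the mutant libraries and 16.1, 9.94 and 12.0 CPM in the WT libraries. The groups came close, with mutant replicate 2 just above WT replicate 1, and did not overlap. sqt-3 rose 1.98-fold, from 12.7 ± 3.15 to 25.1 ± 7.10 CPM (SD, n = 3). The log2 fold change was 0.98 with an SE of 0.20 (edgeR adjusted p = 0.015). The call was lost without nmr-2(ok3324) replicate 1 (0.74, edgeR adjusted p = 0.085) and without WT replicate 3 (0.93, edgeR adjusted p = 0.061). An annotated non-coding gene on the opposite strand, F23H12.13, covers 144 exonic bases of sqt-3 and had 0 counts in every library.

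Relative to sqt-3, dpy-5 and dpy-13 were higher in the mutant libraries. There were 2.03, 2.83 and 2.12 dpy-5 counts per sqt-3 count in the mutant and 1.11, 1.41 and 1.01 in WT. For dpy-13 the same ratio was 2.24, 2.71 and 2.44 in the mutant and 1.41, 1.39 and 1.08 in WT. Both ratios were higher in all 3 mutant libraries than in all WT libraries, which in a 2-sided exact permutation test gives p = 0.1, the smallest that 3 against 3 libraries allow. Relative to rol-6, the dpy-5 ratio was 12.3, 9.83 and 12.1 in the mutant and 5.16, 10.4 and 6.06 in WT. These ranges overlapped (2-sided exact permutation test, p = 0.2). The ratios given here were chosen after the values of the genes were seen.

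dpy-17 (WBGene00001076, chromosome III, 5107330 to 5108492, plus strand, 2 exons) encodes a collagen that is known to interact genetically with sqt-3 and with the procollagen-cutting protease gene dpy-31. Its level was lower, not higher, in the mutant. It had 3.97, 1.76 and 3.37 CPM in the mutant libraries and 4.65, 5.04 and 4.11 CPM in the WT libraries. The mutant libraries were all below the WT libraries, by little in replicate 1, yet the difference did not pass (log2 fold change -0.60, 95% interval -1.19 to -0.01 before any adjustment, edgeR adjusted p = 0.29). Without nmr-2(ok3324) replicate 2 the log2 fold change was -0.32.

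Within single libraries, dpy-17 counts per sqt-3 count were 0.121, 0.0934 and 0.141 in the mutant and 0.288, 0.507 and 0.341 in WT. The mean ratio was thus 0.119 in the mutant and 0.379 in WT. The mean log2 ratios differed by -1.65, a value that does not depend on the scaling of libraries. All mutant libraries were lower in dpy-17 and higher in sqt-3 than all WT libraries, so this ratio had to separate the strains. Its p of 0.1 (2-sided exact permutation test, the smallest possible here) was thereby fixed and adds no support. The ratio was chosen after the values were seen. dpy-31, which encodes an astacin protease, was at 12.7 CPM in the mutant, 1.24-fold its WT mean, and did not pass (0.31 on the log2 scale, SE 0.19, edgeR adjusted p = 0.40).

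The roller collagens sqt-1 and rol-6 work together in setting body form: a ROL-6 protein that makes animals roll needs SQT-1 to do so. sqt-1 (WBGene00005016, chromosome II, 11336693 to 11337837, minus strand) had 14.7, 8.29 and 9.55 CPM in the mutant libraries and 6.89, 3.05 and 3.66 CPM in the WT libraries. It rose from 4.53 ± 2.06 to 10.8 ± 3.39 CPM (SD, n = 3), a rise of 1.26 on the log2 scale with an SE of 0.28 (edgeR adjusted p = 0.028). Replicate 1 was the highest library in both strains, and the call was lost without nmr-2(ok3324) replicate 1 (0.97, edgeR adjusted p = 0.14) and without WT replicate 3 (1.10, edgeR adjusted p = 0.11). With library totals and no scaling factor it was lost too (1.39, edgeR adjusted p = 0.063).

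rol-6 (WBGene00004397, chromosome II, 8733050 to 8734239, plus strand), widely used in its dominant form to mark transgenic worms, had 5.43, 5.42 and 4.18 CPM in the mutant libraries and 3.49, 1.36 and 2.01 CPM in the WT libraries. The groups were separate, but the WT libraries were spread 2.57-fold. The log2 fold change of 1.13 (SE 0.30, 95% interval 0.49 to 1.76 before adjustment) missed the threshold with an edgeR adjusted p of 0.069. It passed with DESeq2 (adjusted p = 0.017), with limma-voom (adjusted p = 0.048), without the low-count filter (edgeR adjusted p = 0.0022) and without WT replicate 1 (1.56, edgeR adjusted p = 0.016). There were 2.71, 1.53 and 2.28 sqt-1 counts per rol-6 count in the mutant and 1.98, 2.25 and 1.82 in WT, so that their ratio showed no separation of the strains.

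lon-3 (WBGene00003057, chromosome V, 12197437 to 12198645, minus strand) is unusual among shape collagens in that its loss lengthens the animal while extra copies shorten it. It was measured at 5.85, 4.30 and 4.66 CPM in the mutant libraries and at 2.93, 1.26 and 2.21 CPM in the WT libraries, without overlap. lon-3 rose from 2.13 ± 0.836 to 4.93 ± 0.815 CPM (SD, n = 3), or 2.31-fold. On the log2 scale this was 1.20 with an SE of 0.29 (edgeR adjusted p = 0.041). This call had the least room of the 5. It was lost without nmr-2(ok3324) replicate 1 (1.06, edgeR adjusted p = 0.16), nmr-2(ok3324) replicate 3 (1.24, 0.064), WT replicate 2 (0.93, 0.11) or WT replicate 3 (1.21, 0.11), and with library totals alone (1.34, 0.086), each value here being a log2 fold change and its edgeR adjusted p.

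The blister collagens bli-1 and bli-2 are known for building the struts that hold the layers of the adult cuticle together. bli-1 (WBGene00000251, chromosome II, 10708960 to 10712156, plus strand) had 3.80, 2.88 and 2.28 CPM in the mutant libraries and 2.63, 0.970 and 3.22 CPM in the WT libraries. bli-2 (WBGene00000252, chromosome II, 5651394 to 5652434, minus strand) had 3.16, 2.88 and 2.80 CPM in the mutant libraries and 3.49, 0.727 and 1.81 CPM in the WT libraries. For both genes a WT library was the lowest of all, WT replicate 2, and another WT library reached into or above the mutant range.

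Neither bli-1 nor bli-2 passed, whereas the blister gene bli-6, described below, rose. The log2 fold change of bli-1 was 0.39 (SE 0.36, edgeR adjusted p = 0.58), with a 95% interval of -0.37 to 1.15. That of bli-2 was 0.54 (SE 0.39, edgeR adjusted p = 0.46), with an interval of -0.29 to 1.37. Both intervals hold 0 as well as a 2-fold rise. These libraries thus do not show whether bli-1 and bli-2 differed from sqt-1 or lon-3 in their response. Without WT replicate 2 the log2 fold changes were 0.03 and 0.15, and without WT replicate 1 that of bli-2 was 1.19.

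dpy-14 (WBGene00001075, chromosome I, 6843589 to 6845142, plus strand, 4 exons), also a collagen with dumpy mutants, went the other way. Mutant replicates 1, 2 and 3 held 0, 2 and 1 counts of it, and WT replicates 1, 2 and 3 held 20, 20 and 18. The WT libraries were even, with levels of 0.861, 0.970 and 0.724 CPM, and each mutant library lay below the 3 counts taken as the limit of detection. The 3 against 58 counts correspond, after scaling, to 0.0468 times the WT level (95% exact interval 0.00937 to 0.144, covering counting error only).

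dpy-14 fell with a fitted log2 fold change of -4.25 (SE 0.76, edgeR adjusted p = 0.005), the lowest of all 13138 genes tested, a value that depends on the prior count of the fit. The gene passed the low-count filter only through its WT libraries, so its rank and p-value are not independent of how it entered the test. The call was kept in all 13 alternatives that tested the gene, with log2 fold changes of -5.05 to -3.66, and a filter of 1 CPM in 3 libraries removed it. Of the 9 genes tested within 10 kb of dpy-14, edgeR, limma-voom and DESeq2 each called 0. Before adjustment, 2 of the 9 had an edgeR p under 0.05, beside 2257 of all 13138 genes tested. The log2 fold changes of the 9 genes lay between -0.37 and 0.75.

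**Figure D2:**
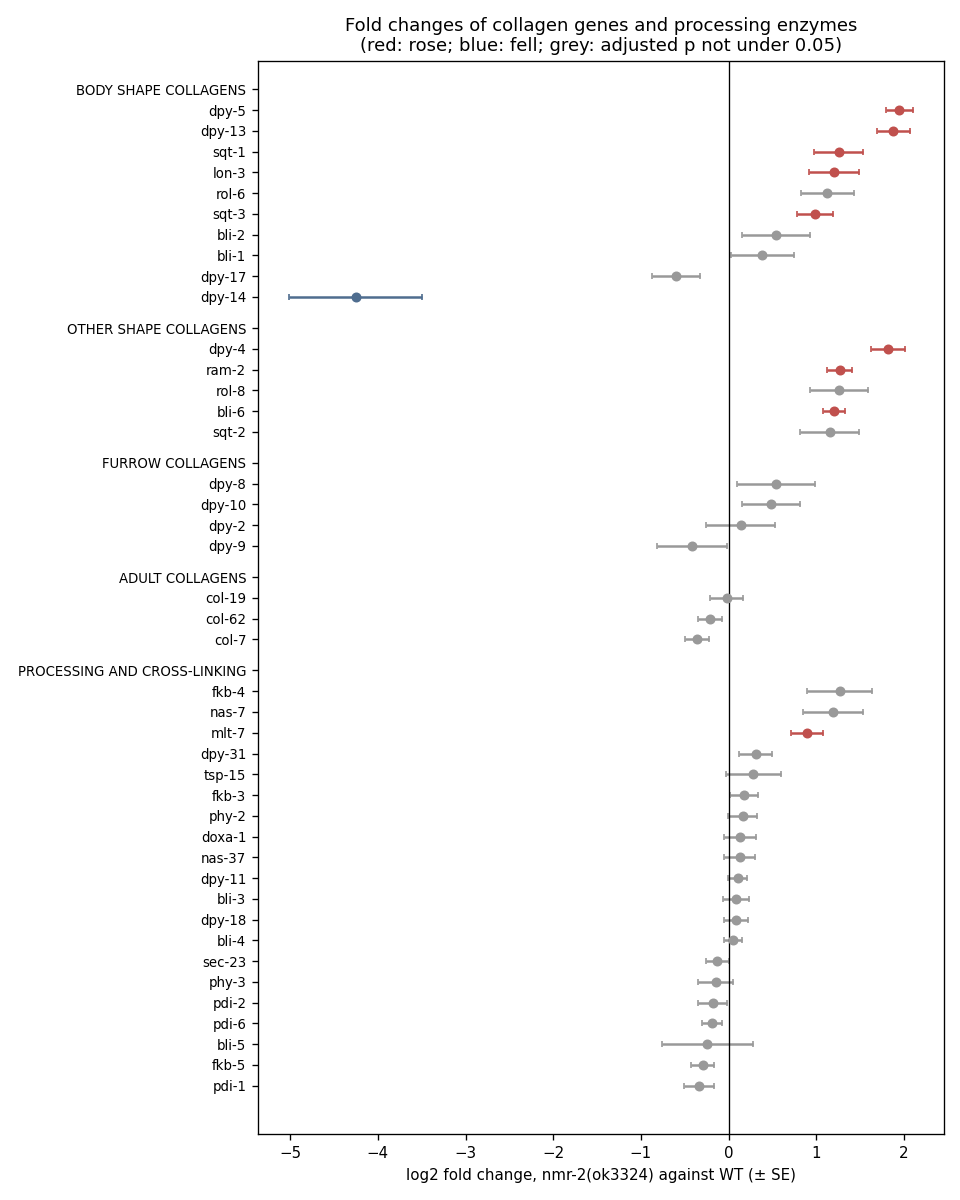
Log2 fold changes (horizontal axis, nmr-2(ok3324) against WT, with SE) of the 10 shape collagens and of related genes, in red where they rose, blue where they fell and grey where the adjusted p was not under 0.05. dpy-5 and dpy-13 lie near 2, the furrow collagens lie between -0.42 and 0.55, and dpy-14 stands alone at -4.25.

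Levels between genes were compared per kilobase of annotated exon, since the exons of these genes add up to 855 to 3010 bases. In WT the order was dpy-5 (17.2 ± 3.46 CPM per kilobase), dpy-13 (16.7 ± 5.41), sqt-3 (8.93 ± 2.22), sqt-1 (4.34 ± 1.97), dpy-17 (4.14 ± 0.424), rol-6 (2.10 ± 1.00), bli-2 (2.02 ± 1.40), lon-3 (1.90 ± 0.743), dpy-14 (0.809 ± 0.117) and bli-1 (0.755 ± 0.387; SD, n = 3). The libraries of neighbours in this order overlapped for dpy-5 and dpy-13, for sqt-1 and dpy-17, among rol-6, bli-2 and lon-3, and for dpy-14 and bli-1. In the mutant dpy-5 (66.5 ± 10.0) and dpy-13 (61.5 ± 11.6) still led, with a wider gap to sqt-3 (17.7 ± 4.99) and sqt-1 (10.4 ± 3.24), whose libraries overlapped there. dpy-17 went from position 5 to position 8, at 2.73 ± 1.03, and dpy-14 was last, at 0.0387 ± 0.0359.

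**Figure D3:**
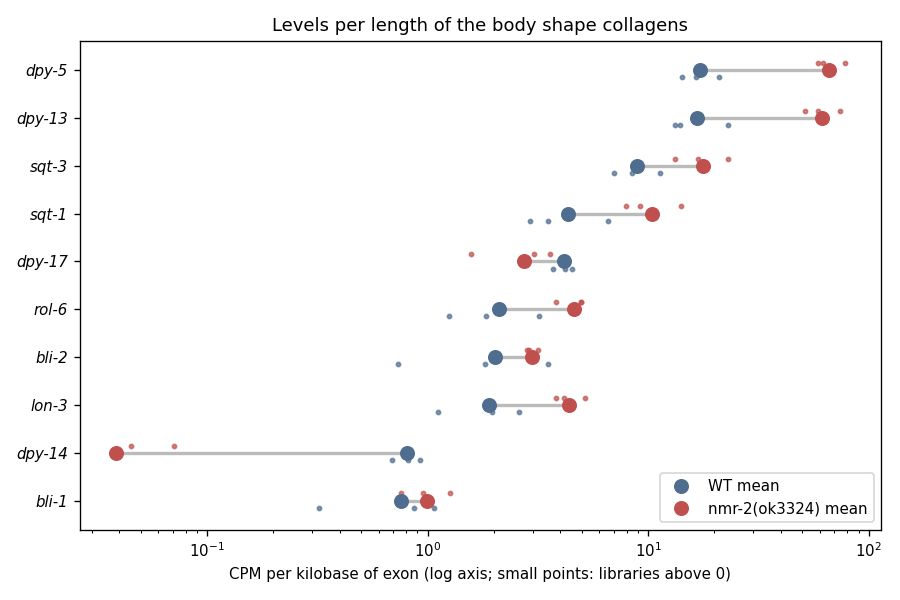
Mean level of each gene in CPM per kilobase of exon (horizontal log axis) in WT (blue) and nmr-2(ok3324) (red), with small points for single libraries above 0, ordered by the WT level. The highest genes of WT, dpy-5 and dpy-13, moved furthest to the right, dpy-17 and dpy-14 have their mutant mean to the left, and the mutant library of dpy-14 with 0 counts is not drawn.

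The 10 genes together gave 210, 149 and 160 CPM in mutant replicates 1, 2 and 3, and 81.7, 51.2 and 55.0 CPM in WT replicates 1, 2 and 3. The sum was 2.76-fold higher in the mutant. dpy-5 and dpy-13 alone accounted for 66.8% to 70.1% of it in the mutant libraries and for 45.9% to 54.5% in the WT libraries, ranges that did not overlap. The other 8 genes summed to 54.9 ± 13.2 CPM in the mutant and 31.4 ± 8.97 CPM in WT (SD, n = 3). All genes with a col number in their symbol summed to 41676 ± 6822 CPM in the mutant and 41764 ± 6784 CPM in WT, so that the shape collagens were a minor part of collagen RNA in both strains. The near-equal sums do not mean that single col genes were unchanged, since 42 of the 103 tested rose and 0 fell.

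**Figure D4:**
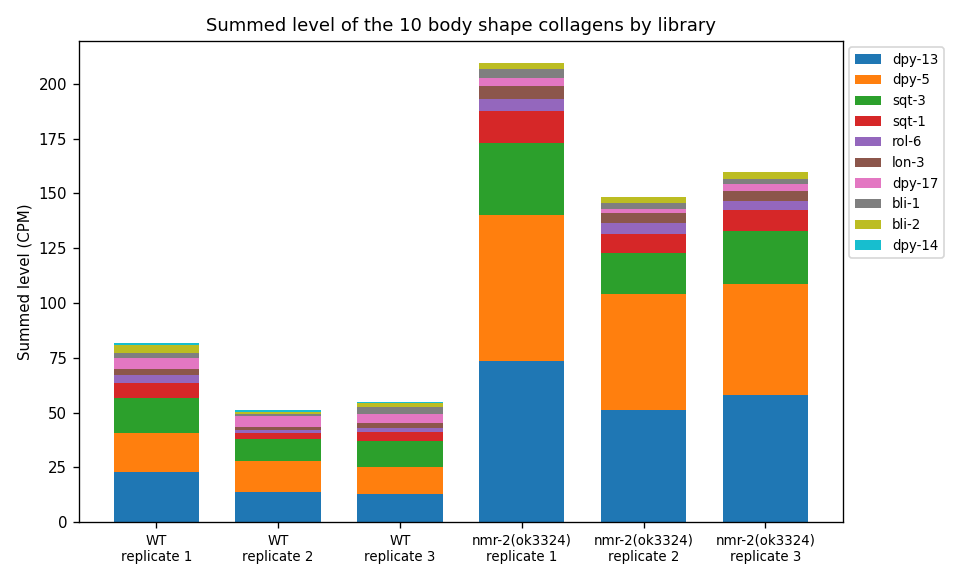
Summed level of the 10 genes in CPM (vertical axis, from 0) in each library, stacked by gene. The mutant libraries reach 149 to 210 CPM and the WT libraries 51.2 to 81.7 CPM, with most of the difference in dpy-13 and dpy-5.

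The members also varied among libraries of 1 strain, and not all in the same way. In WT, replicate 2 was the lowest library for 6 of the 10 genes, namely rol-6, sqt-1, sqt-3, lon-3, bli-1 and bli-2. Across the WT libraries these genes spanned 1.62-fold (sqt-3) to 4.79-fold (bli-2). The other 4, dpy-5, dpy-13, dpy-14 and dpy-17, were lowest in WT replicate 3 and spanned 1.23-fold to 1.74-fold. In the mutant, replicate 1 was the highest library for 9 of the 10, with dpy-14 as the exception. WT replicate 1 was likewise the highest WT library for dpy-5, dpy-13, rol-6, sqt-1, sqt-3, bli-2 and lon-3. The libraries with outlying scaling factors are those numbered 2; without both, sqt-1 (1.21), sqt-3 (1.01) and lon-3 (1.04) kept their calls, with these log2 fold changes.

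Further collagens named for body or tail shape, dpy-4, ram-2, bli-6, rol-8 and sqt-2, were set beside the 10. Like the other lists, this one was chosen with earlier results of these data known. Of these 5, 3 rose and 2 did not pass, where 1.79% of all tested genes rose. Their median log2 fold change was 1.26, beside 0.03 over all tested genes. dpy-4, a dumpy gene, rose 3.52-fold to 61.7 CPM (1.82 on the log2 scale, SE 0.19, edgeR adjusted p = 2.5e-05), near dpy-5 and dpy-13 in both size and level. ram-2, named for the rays of the male tail, had a log2 fold change of 1.27 (SE 0.14), and the blister gene bli-6 one of 1.20 (SE 0.13), and both rose. rol-8 (1.26, SE 0.33, edgeR adjusted p = 0.064) and sqt-2 (1.15, SE 0.33, edgeR adjusted p = 0.10) missed the threshold. Both were lowest in WT replicate 2, at 2.09 and 1.79 CPM, and without WT replicate 1 all 5 passed.

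The furrow collagens line the circumferential grooves of the cuticle. Per kilobase of exon, their WT means ran from 0.316 CPM (dpy-7) to 1.40 CPM (dpy-9). That is below the WT means of all shape collagens but dpy-14 (0.809) and bli-1 (0.755). Of 6 genes, dpy-3 and dpy-7 did not pass the low-count filter, and of the 4 tested 0 were called, whether by edgeR, by limma-voom or by DESeq2. At an unadjusted p under 0.05 edgeR gave 0 as well. Closest to the threshold were dpy-10 (log2 scale 0.48, SE 0.33, edgeR adjusted p = 0.44) and dpy-8 (0.55, SE 0.44, edgeR adjusted p = 0.52). Their median was 0.31. At 1.09 to 1.88 CPM in the mutant, the tested furrow genes gave few counts, and whether their response differed from that of the shape collagens was not tested. Among all 103 tested genes with a col number, 42 rose, or 40.8%, with a median log2 fold change of 0.41. None of these fell with edgeR, DESeq2 or limma-voom, and 2 were lower at an edgeR p under 0.05 before adjustment.

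Genes that process and cross-link collagen showed 1 call among 20 tested of 21 listed, where 2.16% of all tested genes were called. mlt-7, which encodes a peroxidase that cross-links cuticle proteins, was at 16.1, 26.0 and 18.1 CPM in the mutant libraries and 10.4, 9.50 and 12.4 CPM in the WT libraries, without overlap. It rose 1.86-fold (0.89 on the log2 scale, SE 0.18, edgeR adjusted p = 0.014), a call that was lost with library totals alone and without WT replicate 1. The other 19 did not pass and the median of the list was 0.09. Before adjustment, 4 of the 20, mlt-7 among them, had an edgeR p under 0.05, beside 2257 of all 13138 genes tested. The astacin protease gene nas-7 (1.19 on the log2 scale, SE 0.34, edgeR adjusted p = 0.10) and the peptidyl-prolyl isomerase gene fkb-4 (1.27, SE 0.37, edgeR adjusted p = 0.11) had larger differences than mlt-7 and missed the threshold. For nas-7 and fkb-4, as for mlt-7, all mutant libraries lay above all WT libraries, which held for 13.4% of all tested genes. fkb-5, also at an unadjusted p under 0.05, was lower in all mutant libraries (-0.29, SE 0.13, edgeR adjusted p = 0.27). The lowest of the list was pdi-1 (-0.33, SE 0.17, edgeR adjusted p = 0.33). The rest included dpy-18 and phy-2, which encode prolyl 4-hydroxylase subunits, pdi-2, dpy-11, the procollagen-cutting convertase gene bli-4 and the dual oxidase gene bli-3. The log2 fold changes of these named genes ran from -0.18 (pdi-2) to 0.16 (phy-2).

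The adult collagen genes did not pass. Of col-19, col-7 and col-62, 0 were called, whether by edgeR, by limma-voom or by DESeq2, while 1 (col-7) had an edgeR p under 0.05 before adjustment. col-19, a common marker of the adult cuticle, was at 2335, 1733 and 2157 CPM in the mutant libraries and at 2008, 2428 and 1888 CPM in the WT libraries, with overlapping groups (log2 fold change -0.02, SE 0.19). Closest to the threshold were col-7 (-0.36, SE 0.13, edgeR adjusted p = 0.20) and col-62 (-0.21, SE 0.14, edgeR adjusted p = 0.43).

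The 10 genes are scattered over the genome, with 4 on chromosome II, 2 each on I and V and 1 each on III and IV. Within 10 kb on either side the annotation holds 94 other genes, of which 47 were tested. With edgeR 1 of them rose, F54D8.6 beside dpy-17, a gene named after its values were seen, and 0 fell. Over all tested genes 1.79% rose. DESeq2 called 2 and limma-voom 1, all higher in the mutant. Before adjustment, 11 of the 47 had an edgeR p under 0.05, beside 2257 of all 13138 genes tested. Besides sqt-3, bli-1 shares exonic bases with a gene on the opposite strand, 7 of them with dph-2, while bli-2 and lon-3 lie across from zyg-1 and ogdh-2 without shared exon bases. The strand setting of the counting is not given in the sources used here, so reads of such pairs cannot be told apart by strand.

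**Figure D5:**
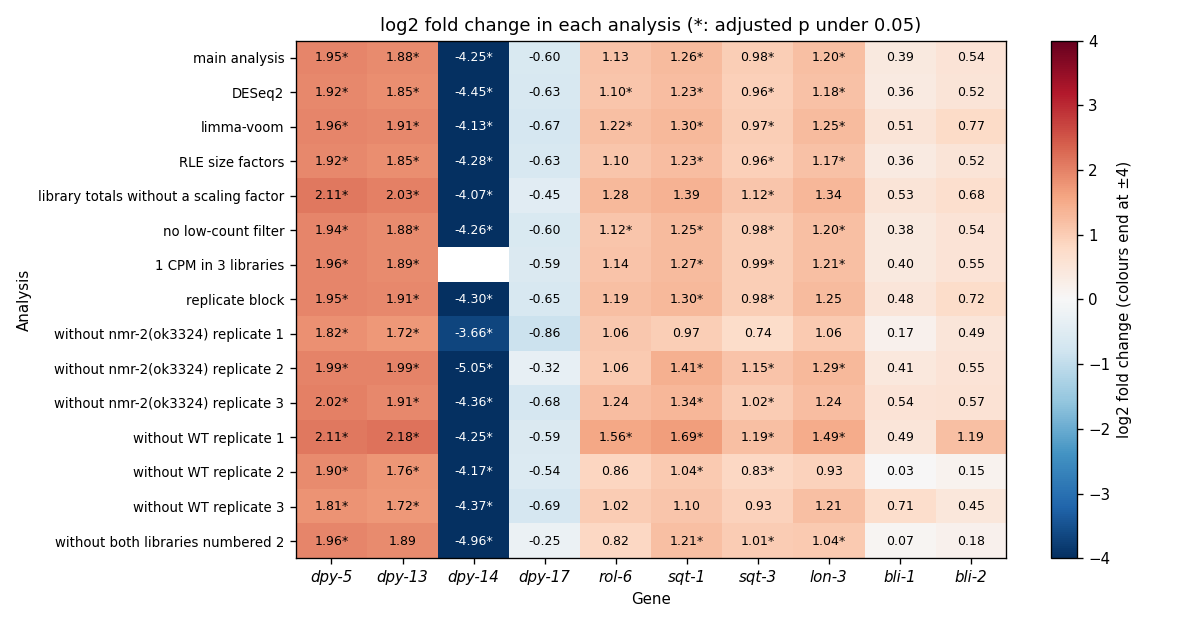
Log2 fold change of each gene (columns) in the main analysis and the 14 alternatives (rows), written in each cell and coloured from blue (lower in nmr-2(ok3324)) to red (higher), with a star where the adjusted p was under 0.05. The columns of dpy-5 and dpy-14 are starred wherever they were tested, those of dpy-17, bli-1 and bli-2 nowhere, and those of rol-6, sqt-1, sqt-3 and lon-3 in part.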

How the data were processed

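For each of the 6 libraries the authors deposited raw counts of reads per gene. Per the submitters' processing notes, HTSeq and DESeq2 were used, with no version named. Not given in the sources used here are the aligner, build, annotation and strand setting, so near-identical collagens may share or lose reads.

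The members and gene lists were chosen with earlier results of these data known. All 10 members are named, and of the furrow, other shape, processing and adult lists the genes past the threshold or, where none passed, the 2 with the smallest p. The genes dpy-31, rol-8, sqt-2, col-19, nas-7, fkb-4, fkb-5, pdi-1 and 6 further processing genes were named after their values were seen. Symbols came from a table holding 44059 of the 46911 identifiers, and coordinates from Ensembl annotation of WBcel235. The intestinal marker opt-2 matched no symbol.

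Counts were fitted in R 4.3.3 with edgeR 4.0.16 (filterByExpr with nmr-2 kept, TMM, robust glmQLFit, glmQLFTest, Benjamini-Hochberg at 0.05). SE is the absolute log2 fold change over the square root of F. CPM use TMM factors. Replicate pairs differed beyond sampling noise (chi-square per degree of freedom 9.59 to 42.0). The edgeR step was tested on simulated counts. Alternatives were DESeq2 1.42.0, limma-voom (limma 3.58.1), RLE factors, library totals, 2 other filters, a replicate block, leaving out each library, and leaving out both numbered 2. Figures were drawn with matplotlib 3.10.9.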

Additional observations from a re-analysis of the deposited data

How the results depend on the processing

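All 10 shape collagens kept the direction of their log2 fold change in each of the 14 alternatives that tested them. The 5 that rose became 3 with library totals alone, where the median of all genes moved by 0.177; relative to that shift sqt-1 was at 1.21 and lon-3 at 1.17. The number that rose was 2 to 6 when 1 library was left out, with 2 (dpy-5 and dpy-13) without nmr-2(ok3324) replicate 1 or without WT replicate 3. The 1 that fell became 0 with a filter of 1 CPM in 3 libraries, which removes dpy-14. Of the 5 other shape collagens, 5 in place of 3 rose without the low-count filter, and 3 to 5 when 1 library was left out. Of the processing genes, 2 in place of 1 rose with DESeq2 and without the low-count filter, 0 with library totals alone, and 0 to 2 when 1 library was left out. Over all genes, 235 rose and 49 fell. These became 441 and 155 without the low-count filter, and the 49 became 105 with DESeq2, 16 with library totals alone and 185 without both libraries numbered 2; leaving out 1 library gave 151 to 226 rises and 30 to 52 falls.

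Over all tested genes the replicate numbers did not pair the libraries. Deviations from the strain means correlated at 0.000769, -0.277 and -0.102 for numbers 1, 2 and 3, and 0 of the 6 libraries correlated best with its own number. Pairing among the shape collagens alone was not tested. With the replicate number as a block, 124 genes rose and 18 fell, 4 shape collagens rose (lon-3 at edgeR adjusted p = 0.078) and 1 fell, and 0 processing genes rose.

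Low counts limit what can be said of dpy-14, nmr-2 and the furrow collagens dpy-3 and dpy-7, and of the processing genes bli-5 and nas-6.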
